A study of Mus musculus with 16 samples.

Results

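A set of 10 genes of the maturation program of dendritic cells (DCs) were followed through single-cell RNA libraries of immune cells from mouse tumors: Ccr7, Fscn1, Relb, Cd40, Il12b, Ccl22, Cacnb3, Socs2, Traf1 and Birc3. The genes were taken by name, and all 10 were found among the 31053 genes of the count matrices. The 16 libraries came from live CD45+ (hematopoietic) cells sorted from subcutaneous flank tumors of C57BL/6J mice and prepared with droplet 3′ chemistry, which counts molecules by unique molecular identifiers (UMIs). The tumors were grown from MC38, which derives from a colorectal carcinoma, or from Panc02-SIY, which derives from a pancreatic adenocarcinoma and was made to express the model antigen SIY. Each tumor was either left untreated (NT) or given 12 Gy of focal radiation (RT) and harvested 24 h later. This gave 4 groups of 4 libraries: untreated MC38, irradiated MC38, untreated Panc02-SIY and irradiated Panc02-SIY. No agent other than radiation was given, all tumors were transplants of cell lines, and the labels used here do not give the age of the mice.

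Immature conventional DCs sample their surroundings, and on sensing danger or inflammatory signals they mature: they raise the chemokine receptor that guides them to lymph nodes, reshape their cytoskeleton, display costimulatory proteins and secrete cytokines and chemokines that act on T cells. Signalling from the receptor CD40 and from inflammatory receptors runs through TRAF adaptors, the cellular inhibitor of apoptosis proteins and the NF-kB transcription factors, of which RelB is the member most closely tied to DC maturation. In tumors, cells with this program share a set of genes whichever DC subset they arose from, which makes the program itself the usual means of finding them.

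Promoter sequences are shown for Fscn1 and Ccl22, the members for which a difference between groups of mature DCs was called. The windows are from RefSeq, build GRCm38.p6, on the plus strand, and run from 250 bases before to 50 bases after the annotated start. Windows were on hand for 6 of the 10 members (7 windows, 2 of them for Cacnb3), and Ccr7, Relb, Cd40 and Socs2 had none. The Fscn1 window is chr5:142960105-142960404, with the letters TATAAA in capitals, and the Ccl22 window is chr8:94745434-94745733, in which none of the searched motifs was found.
Fscn1: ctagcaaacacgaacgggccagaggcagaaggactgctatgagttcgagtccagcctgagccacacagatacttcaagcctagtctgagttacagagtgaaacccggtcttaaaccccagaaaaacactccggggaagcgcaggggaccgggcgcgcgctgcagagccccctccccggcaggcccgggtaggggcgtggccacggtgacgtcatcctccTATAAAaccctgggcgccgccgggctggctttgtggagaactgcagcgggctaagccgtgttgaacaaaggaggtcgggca
Ccl22: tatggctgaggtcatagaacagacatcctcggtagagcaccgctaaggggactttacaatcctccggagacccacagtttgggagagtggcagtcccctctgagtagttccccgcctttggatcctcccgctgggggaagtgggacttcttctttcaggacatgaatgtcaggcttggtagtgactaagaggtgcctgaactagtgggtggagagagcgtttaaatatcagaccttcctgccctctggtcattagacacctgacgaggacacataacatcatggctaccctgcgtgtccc
The motif TATAAA, read on both strands, was in 1 of the 7 member windows and in 13.6% of the 32851 windows of all genes. The NF-kB consensus (8.46% of all windows), GAGGAAGT (an ETS-family core, 3.2%), TGANTCA (an AP-1 core, 7.81%) and the core of the interferon-stimulated response element (3.44%) were each in 0 of the 7. A match of letters is a description of the window and not a bound site.

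Many cell barcodes were shared between the MC38 libraries. Their 9843 barcodes comprised 2632 distinct sequences, and the median pair of MC38 libraries shared 83.3% of the barcodes of the smaller one, against 5.54% for Panc02-SIY pairs. Each barcode was therefore kept only in the library, among all 16 of both tumors, where it had the most UMIs. This left 20756 of 28678 barcodes, 2625 of them from MC38. A library then held between 147 and 609 barcodes in MC38 and between 1112 and 4449 in Panc02-SIY, so MC38 values rest on fewer cells. The copies left out carried 13.6 to 57.2% of a library's UMIs in MC38 and at most 1.07% in Panc02-SIY. The MC38 pairs include untreated with irradiated libraries, so the group of a kept barcode is less certain in MC38. The labels number the libraries of a group as replicates, and the study's methods give fewer animals than libraries per group. By the methods the libraries of a group thus cannot all be separate animals, and no label ties a library to an animal. The p-values therefore measure the spread between libraries, which may in part be technical.

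Cells were clustered without the 10 members, so that a member's level played no part in forming the clusters. The conventional DC-like (cDC-like) cells numbered 581, or 2.8% of kept barcodes. Among them 118 were mature DC-like, 120 DC1-like, 128 DC2-like and 215 belonged to no named subset. The 215 include 45 cells of a sub-cluster (number 7) that the naming rule called macrophage and 24 of a sub-cluster (number 9) led by Nkg7, Gzmb and Cd3g, in which 8 of 8 T cell and 7 of 7 NK cell markers were raised. The rest were 62 cells of sub-cluster 4, which raised 6 of 8 macrophage and 3 of 7 DC2 markers, and 84 shallow barcodes of sub-cluster 1. Sub-cluster 1 raised 7 of 8 DC1 and 4 of 8 macrophage markers. All stayed in the cDC-like sums. Without sub-clusters 7 and 9, an alternative added after seeing the data, the same number of members was called in every cDC-like comparison given below. This left 57 of 58 untreated and 53 of 55 irradiated MC38 cells, and 195 of 213 and 207 of 255 in Panc02-SIY. It could thus change little in MC38. Sub-clusters 1 and 4 held most of the MC38 cDC-like cells, and their part was not tested. All 12 of the mature DC markers used for naming were higher in the mature DC-like cells than in the other 3 cDC-like sets, with a summed level of 10230 CPM, which is UMIs of a gene per 1000000 UMIs of the cells summed, against at most 661 CPM in DC1-like cells. Of the subset markers, 8 of 8 for DC1 and 5 of 7 for DC2 were highest in their own subset. Other classes were named from their markers in the same way, so macrophage, T cell and the like stand for cells with those markers. Of the mature DC-like cells, 24 formed a sub-cluster of shallow barcodes. The summed macrophage markers stood at 429.7 CPM in the mature DC-like cells and B cell markers at 4.03 CPM. Levels in this subset against other cells are given as a description without a test, because members and naming markers belong to the same program.

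The mature DC-like cells held 0.569% of barcodes and 0.709% of UMIs, yet most UMIs of 4 members. Fscn1 encodes fascin, an actin-bundling protein of DC projections (chromosome 5, 142960355 to 142973189 in GRCm38.p6), and 84.8% of its UMIs were in these 118 cells. Cacnb3 encodes a beta subunit of voltage-gated calcium channels (chromosome 15, 98628436 to 98644536), and the share was 72.4%. For Ccl22, a chemokine that attracts CCR4-bearing T cells (chromosome 8, 94745684 to 94751388), the share was 68.4%. For Ccr7, the receptor that directs DCs to lymph nodes (chromosome 11, 99144199 to 99155077), it was 63.2%. Il12b, the p40 chain shared by the cytokines interleukin-12 and interleukin-23 (chromosome 11, 44400063 to 44414677), was divided between subsets, with 47.1% of UMIs in mature DC-like and 37.3% in DC1-like cells.

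The remaining 5 members, which act in signalling, were mostly read outside DCs. For scale, T cells held 35% of the UMIs of all genes, macrophages 33.1% and neutrophils 2.67%. The T cell and macrophage shares of Relb and Birc3 given below lie under these values. Socs2, a suppressor of cytokine signalling (chromosome 10, 95383903 to 95417321), had 15% of its UMIs in mature DC-like cells and 40.9% in T cells. Relb (chromosome 7, 19606217 to 19629438) had 9.23% in mature DC-like cells, 28.3% in T cells and 27.7% in macrophages. Traf1, an adaptor of TNF-receptor family members (chromosome 2, 34941750 to 34961812), had 6.46% in mature DC-like and 50.9% in T cells. Cd40, the receptor through which helper T cells activate DCs (chromosome 2, 165055614 to 165071654), had 4.97% in mature DC-like cells and 60.5% in macrophages. Birc3, a cellular inhibitor of apoptosis protein (chromosome 9, 7847468 to 7873205), had 2.11% in mature DC-like cells, 27.6% in macrophages, 23% in T cells and 14.3% in neutrophils.

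**Figure D1:**
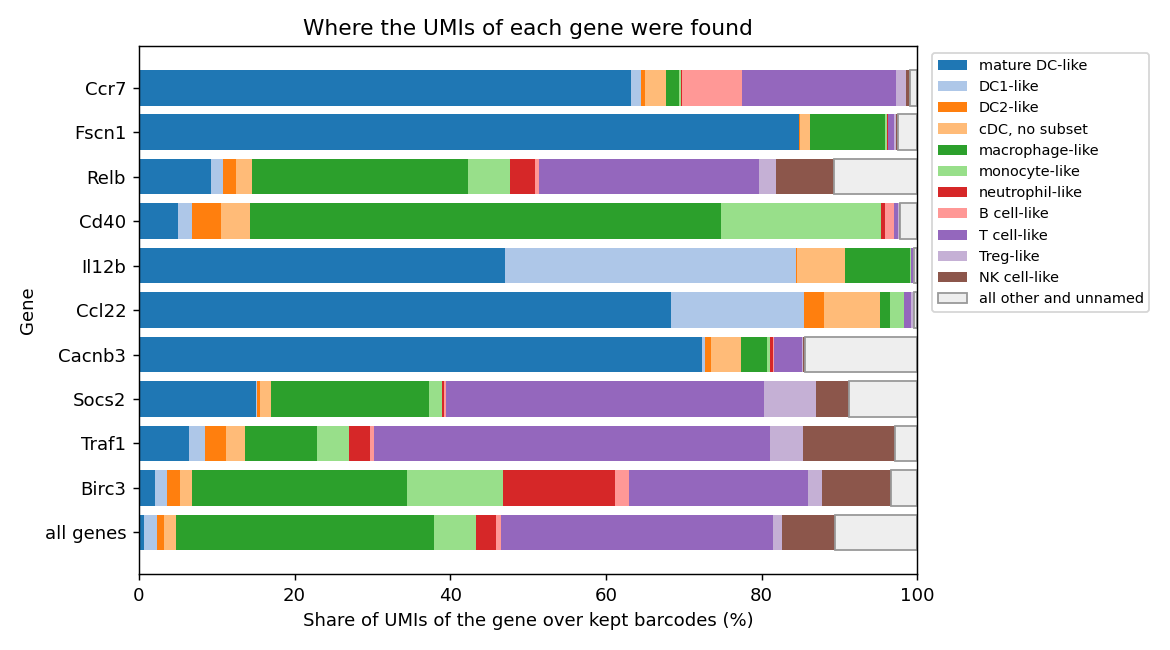
Share of each member's UMIs (percent, over all kept barcodes of the 16 libraries) found in each class of cells. Mature DC-like cells, 0.569% of barcodes, held from 2.11% of Birc3 UMIs to 84.8% of Fscn1 UMIs, and macrophages held 60.5% of Cd40 UMIs.

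Per cell type the order differed from the shares, because large classes contribute many UMIs at a low level. Over the 12 classes with enough cells, mature DC-like cells had the highest mean level of 9 members, in 11 libraries with at least 3 such cells. Ccr7 was at 3257 CPM ± 686 (SD, n = 11 libraries), followed by B cells at 484 CPM ± 175 (n = 8). Fscn1 was at 2398 CPM ± 1286, and the next class, cDC-like cells of no subset, was at 16.1 CPM ± 25.5 (n = 15). For Ccr7, Fscn1, Relb and Cacnb3 the libraries of mature DC-like cells did not overlap those of the next class.

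Relb was at 469 CPM ± 82.5 in mature DC-like cells, with regulatory T cells (Tregs) next at 69.9 CPM ± 27.5. Cacnb3 was at 725 CPM ± 203 against 31.9 CPM ± 98.3 in cDC-like cells of no subset. Below the top, neighbouring classes overlapped for every one of these 4 genes among the leading 4 classes. Socs2 was at 722 CPM ± 365, with Tregs at 210 CPM ± 76.3 and mast cells or basophils at 155 CPM ± 140. Traf1 was at 1034 CPM ± 167, followed by Tregs at 510 CPM ± 201, DC2-like cells at 302 CPM ± 114 and NK cells at 278 CPM ± 128. For both genes the ranges of mature DC-like cells and Tregs overlapped.

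Cd40 was at 219 CPM ± 61.7 in mature DC-like cells, 123 CPM ± 74.3 in DC2-like cells and 111 CPM ± 53.1 in monocytes, with overlapping ranges. Birc3 was the exception to the order: neutrophils came first at 373 CPM ± 75.1 (n = 8), ahead of mature DC-like cells at 230 CPM ± 61.6 and B cells at 228 CPM ± 82.9, and the ranges of these neighbours overlapped. Il12b was at 1216 CPM ± 959 in mature DC-like and 415 CPM ± 713 in DC1-like cells (n = 9), and Ccl22 at 1351 CPM ± 848 and 424 CPM ± 1109, again with overlap.

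**Figure D2:**
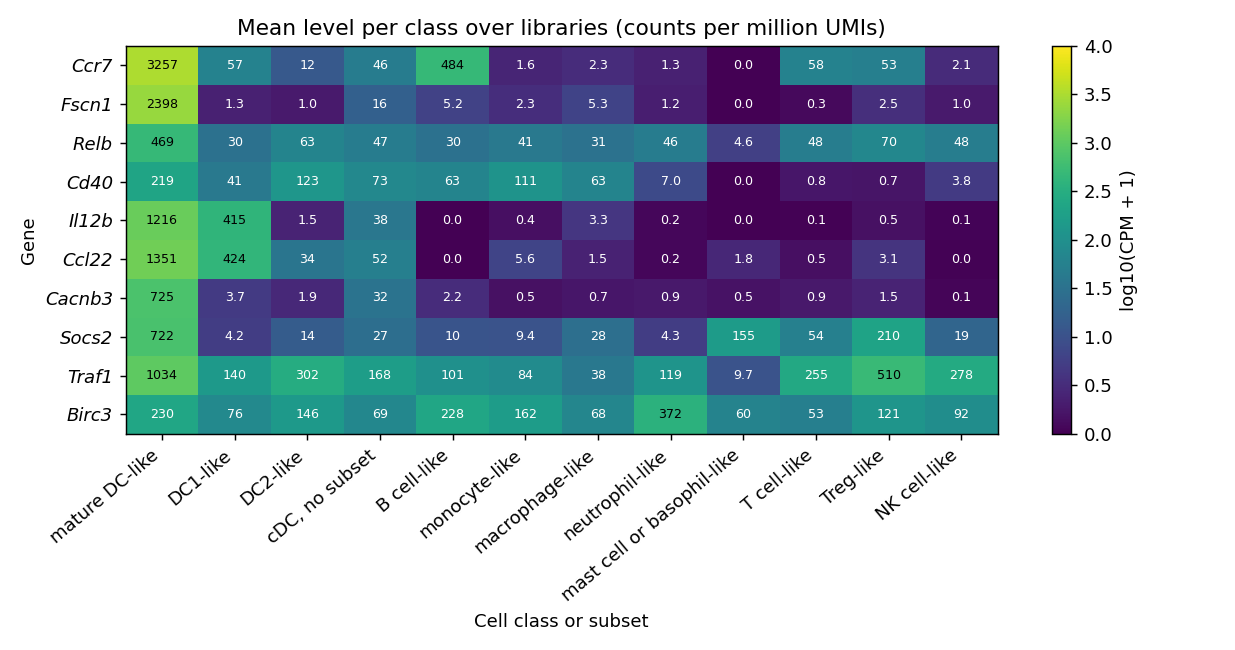
Mean level of each member (rows) in each class of cells (columns) over libraries, printed in CPM and colored by log10(CPM + 1). The mature DC-like column is highest for 9 members, with Ccr7 at 3257 CPM against 484 CPM in B cells, and neutrophils are highest for Birc3 at 372.5 CPM.

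Much of the DC1-like signal of the secreted members came from single barcodes. In DC1-like cells of untreated MC38 replicate 3, 1 barcode with 44088 UMIs carried 339 Ccl22, 209 Il12b and 34 Ccr7 UMIs, and 6 of 8 DC1 and 6 of 12 mature DC markers were detected in it. In irradiated Panc02-SIY replicate 3, 1 barcode with 34209 UMIs carried all 300 Il12b UMIs of that library's 14 DC1-like cells, together with 96 Ccl22 and 42 Ccr7 UMIs. The Panc02-SIY libraries showed the same unevenness in Il12b: the untreated DC1-like cells were at 0, 74.3, 32.3 and 234 CPM and the irradiated ones at 0, 87.5, 1118 and 118 CPM. The groups overlapped, and the difference was not called (log2 1.63, SE 1.25, edgeR quasi-likelihood adjusted p = 0.981). Both barcodes carried markers of DC1 and of mature DCs, and whether they held 1 cell or 2 was not tested.

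Detection was compared after each cell was thinned to 1000 UMIs, which left out 13 of the 118 mature DC-like cells. Ccr7 was then detected in 82.9% of them (exact 95% interval 74.3 to 89.5), Fscn1 in 76.2% and Traf1 in 61%. Cacnb3 and Socs2 were each detected in 55.2%, Ccl22 in 49.5%, Relb in 43.8%, Il12b in 31.4%, Birc3 in 19% and Cd40 in 14.3%. Before thinning, Ccr7 was found in 89.8% and Cd40 in 54.2% of the 118, whose median was 9099 UMIs. Il12b was found in 11.9% of thinned DC1-like cells (25.8% before thinning) and in 0 of 127 thinned DC2-like cells (2 of 128 before thinning). At this depth 0 of 127 allows up to 2.36% of cells with a UMI, which is no limit on the cells that express the gene. In thinned DC1-like and DC2-like cells Ccr7 was found in 0.848% and 1.57%, and in T cells, some of which express Ccr7, in 1.92%. Intervals of this kind cover counting error only.

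A mature DC-like cell carried a median of 5 members at this depth, and 95.2% of the cells carried at least 3. The median was 0 in DC1-like, DC2-like, T cells and macrophages and 1 in B cells, and 4.24% of DC1-like cells carried at least 3. Of the 105 thinned mature DC-like cells, 33 had Il12b, 52 had Ccl22, 19 had both and 39 had neither. Thinning lowered the share with a UMI from 49.2% to 31.4% for Il12b and from 76.3% to 49.5% for Ccl22, so these counts miss cells. In irradiated MC38, 6 of 12 mature DC-like cells had Il12b and 9 had Ccl22 before thinning, and 0 and 4 of 10 after it. At this depth 0 of 10 allows up to 30% of cells with an Il12b UMI.

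Across the 12 classes, the genes whose levels followed the mean pattern of the 10 members most closely were Nfkbib, an inhibitor of NF-kB (Pearson r = 0.96), Arpin, an inhibitor of the actin-nucleating Arp2/3 complex (0.96), Stbd1 (0.95), Bcl2l14 (0.95) and Gm48837 (0.95). Bcl2l14 was among the naming markers. These correlations rest on 12 points that share libraries, and 1 class dominates them. Between members, Fscn1 and Cacnb3 had the closest patterns (r = 0.982), and Ccr7 and Cd40 were less alike (r = 0.436).

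Genes of the same pathway were taken from 3 lists, 46 genes in all. Of the NF-kB and CD40 signalling list (25 genes), the genes read most often in mature DC-like cells, in CPM without regard to length, were Nfkbia, the inhibitor of NF-kB that is itself an NF-kB target, at 1070 CPM ± 380 (n = 11), Rel at 975 CPM ± 285 and Birc2 at 539 CPM ± 236. Map3k14, the kinase NIK that activates the noncanonical NF-kB pathway upstream of RelB, was at 350 CPM ± 88.7 and Nfkb2, the partner of RelB, at 274 CPM ± 86.7. Of the 12 costimulatory and surface genes, Cd83 was at 806 CPM ± 211, Cd274, which encodes PD-L1, at 703 CPM ± 290, Cd80 at 312 CPM ± 153 and Cd86 at 299 CPM ± 180.

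The partners of the secreted members and of Ccr7 were mostly not read in these cells. Il12a, the p35 chain that completes interleukin-12, Il23a, the p19 chain of interleukin-23, the CCR7 ligand gene Ccl19, the Ccl22 receptor gene Ccr4 and the CD40 ligand gene Cd40lg each had 0 UMIs in the 11 libraries. Ccl17, the neighbouring chemokine with the same receptor as Ccl22, was at 407 CPM ± 975, a spread larger than its mean. Il12rb2, a chain of the interleukin-12 receptor, was at 56 CPM ± 44.2.

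To ask whether radiation changed the members within mature DCs, Panc02-SIY could be tested with 4 libraries a group. The untreated libraries held 16, 3, 7 and 12 mature DC-like cells and the irradiated ones 6, 17, 13 and 20. Ccl22 rose after radiation and was the 1 member of 10 called, a call being an edgeR quasi-likelihood adjusted p below 0.1 together with a change of more than 1.3-fold either way. Over all 5930 genes tested, 0.169% were called.

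Ccl22 stood at 539, 879, 1399 and 637 CPM in the untreated and at 2790, 2692, 1563 and 2072 CPM in the irradiated Panc02-SIY libraries. Each irradiated library was above each untreated one, an arrangement that 1.89% of all tested genes showed in the higher direction. The fitted difference was log2 1.53 (SE 0.31, a 2.89-fold rise, edgeR quasi-likelihood adjusted p = 0.00261). It was lost without untreated replicate 2, the library with 3 mature DC-like cells (log2 1.46, edgeR adjusted p = 0.12), when finer clusters were used (log2 1.19, edgeR adjusted p = 0.357), and with no minimum number of cells per library (log2 1.53, edgeR adjusted p = 0.259). The setting with no minimum added no Panc02-SIY library, only MC38 ones, which enter the same fit. With the finer clusters only 64 cells were named mature DC-like. Sub-clusters of 35 and 27 cells that raised 12 of 12 and 8 of 12 mature DC markers got no name there. The call was kept without the barcode that held the most Ccl22, 352 UMIs.

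Il12b moved the other way without passing the test. It was at 723, 3132, 1160 and 1695 CPM in the untreated and 780, 1298, 408 and 339 CPM in the irradiated libraries, and the groups overlapped. The difference was log2 -0.99 (SE 0.45, unadjusted p = 0.0394 and adjusted p = 0.995 by edgeR). It was called without untreated replicate 1 (log2 -1.25, edgeR adjusted p = 0.0469) or without irradiated replicate 2 (log2 -1.60, edgeR adjusted p = 0.00435), whose mature DC-like cells included the barcode with the most Il12b, 126 UMIs. At a fixed depth, 16 of 33 untreated and 11 of 50 irradiated cells had Il12b, whereas 18 of 33 and 27 of 50 had Ccl22. These counts pool the cells of a group's libraries and are a description without a test. The share of cells with Ccl22 did not rise with its CPM.

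The migration and cytoskeletal members differed little between these groups. Ccr7 was at 2411, 3517, 4059 and 3952 CPM untreated and 2808, 3540, 3534 and 3699 CPM irradiated (log2 0.08, 95% interval -0.45 to 0.62). Fscn1 was at 2914, 2198, 4828 and 2189 CPM untreated and 3501, 3003, 2979 and 2362 CPM irradiated (log2 0.05, interval -0.50 to 0.60). The irradiated libraries of both genes lay within the untreated range. Socs2 was at 957, 165, 996 and 585 CPM untreated and 1092, 958, 1087 and 862 CPM irradiated, and Cd40 at 156, 165, 176.5 and 337 CPM and 260, 312, 226.5 and 229 CPM. Both genes overlapped between the groups. The 6 members other than Ccl22, Il12b, Ccr7 and Fscn1 had differences from log2 -0.16 for Relb to 0.52 for Socs2, and none was called, with edgeR adjusted p = 0.995 for each. These intervals leave room for changes of the size of a doubling in some members, and the direction for Ccr7, Fscn1, Traf1, Cacnb3 and Cd40 turned under at least 1 other processing.

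Markers of other cells varied between the libraries of these groups. The summed macrophage markers (8 genes) in the mature DC-like cells ranged from 28.4 to 1575 CPM in the untreated and from 45.3 to 79.2 CPM in the irradiated libraries, and 8 T cell markers ranged from 106 to 202 CPM and from 17.3 to 102 CPM. Neutrophil markers (7 genes) reached 638 CPM in 1 irradiated library, with at most 110 CPM in the untreated ones. Their part in the results was not tested. Of the pathway lists, 0 of 24 tested NF-kB and CD40 signalling genes, 0 of 12 costimulatory genes and 0 of 2 partner genes were called. Ccl17 was at 28.7 CPM ± 21.8 untreated and 99.4 CPM ± 106 irradiated (log2 2.32, SE 1.51, edgeR adjusted p = 0.995).

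**Figure D3:**
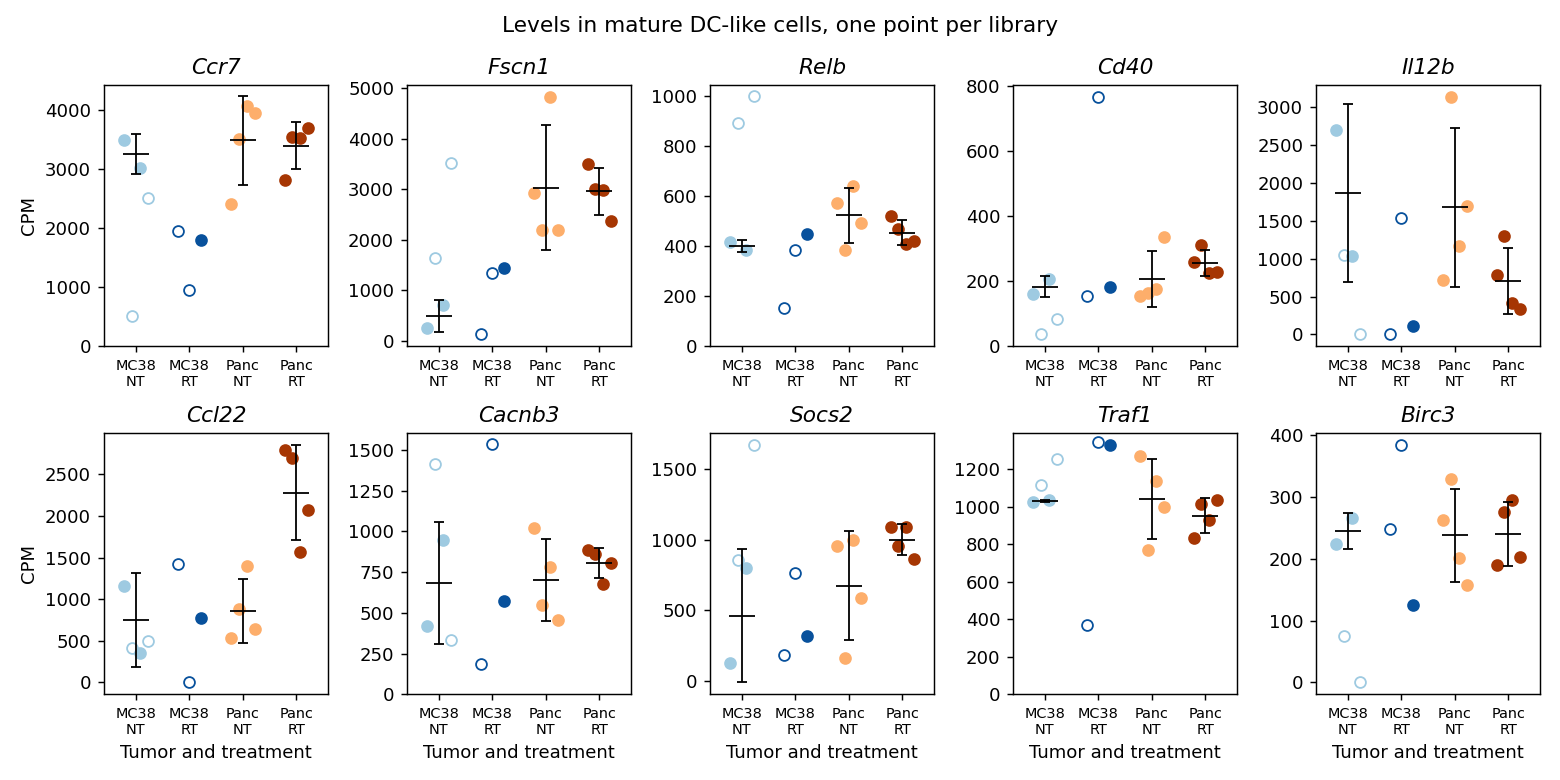
Level of each member (CPM) in the mature DC-like cells of every library by group; filled points are libraries with at least 3 such cells, open points have fewer, and black marks give the mean and SD of the filled points. The 4 irradiated Panc02-SIY libraries lie at 1563 CPM Ccl22 or above and the 4 untreated ones at 1399 CPM or below.

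MC38 held 12 mature DC-like cells in each group, and 1 irradiated library reached the minimum of 3 cells, so radiation was not tested at that minimum. In that library, replicate 4 with 9 cells, Ccl22 was at 779 CPM (exact Poisson 95% interval 638 to 943), Il12b at 110 CPM (61.7 to 182), Ccr7 at 1801 CPM (1583 to 2041) and Fscn1 at 1441 CPM (1246 to 1657). The untreated MC38 libraries with at least 3 cells, replicates 1 and 3, had 1154 and 354 CPM Ccl22, 2693 and 1034 CPM Il12b, 3495 and 3013 CPM Ccr7 and 256 and 709 CPM Fscn1. The irradiated library was below these 2 libraries for Il12b and Ccr7 and between them for Ccl22. For Fscn1 it was above these 2 and below the other 2 untreated libraries, which had 2 cells each and 1637 and 3510 CPM. With no minimum number of cells, an alternative added after seeing the data, Il12b was called after radiation in MC38 (log2 -2.56, SE 0.71, edgeR adjusted p = 0.0476), with 48 of 4267 genes called higher and 16 lower, and the other 9 members were not. It was not called with all barcodes (log2 -2.14, edgeR adjusted p = 0.424). Between the irradiated tumors the fit with no minimum called Fscn1 (log2 -1.86, edgeR adjusted p = 0.0724) and Socs2 (log2 -1.78, edgeR adjusted p = 0.0902) lower in MC38, with 45 genes called higher and 52 lower. With all barcodes, copies shared between libraries included, 5 members were called lower (Fscn1, Socs2, Ccl22, Ccr7 and Cacnb3). Copies of a cell in several libraries are not independent, so the calls of that fit cannot be read as a result about the members. With no minimum the effect of radiation differed between the tumors for 0 members by edgeR. At an unadjusted edgeR p under 0.05 there was 1, Socs2 (log2 -1.61, edgeR adjusted p = 0.667).

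Between the untreated tumors, 1 of 10 members was called in mature DC-like cells (2 MC38 against 4 Panc02-SIY libraries), with 1.03% of 5930 genes called. Fscn1 was at 256 and 709 CPM in MC38 and at 2914, 2198, 4828 and 2189 CPM in Panc02-SIY, without overlap, and fell by 2.85 on the log2 scale (SE 0.43, edgeR adjusted p = 5.45e-07), where the median of all tested genes was -0.35. The 2 MC38 libraries held only 3 and 5 mature DC-like cells, with median depths of 2816 and 4170 UMIs. Summed macrophage markers in these cells were 545 to 1034 CPM in MC38 and 28.4 to 1575 CPM in Panc02-SIY, and their part was not tested. Of the other 2 untreated MC38 libraries, with 2 cells each, 1 lay within the Panc02-SIY range. With both included the call was lost (log2 -1.46, edgeR adjusted p = 0.21). Groups without overlap in the lower direction were seen for 8.62% of genes at these numbers of libraries.

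The share of mature cells among cDC-like cells was compared next. In MC38 the 4 untreated libraries had 27.3, 25, 22.7 and 11.8% mature cells, and the 4 irradiated ones 25, 0, 10.5 and 33.3%. The Panc02-SIY libraries had 34.8, 6.25, 17.1 and 15.4% without treatment, and 21.4, 34, 16.2 and 20.6% after radiation. All groups overlapped. The mean moved from 21.7% ± 6.87 to 17.2% ± 14.8 in MC38 (exact two-sided permutation test, p = 0.6, n = 4 a group) and from 18.4% ± 11.9 to 23.1% ± 7.63 in Panc02-SIY (exact permutation p = 0.457, n = 4 a group). The adjusted exact permutation p over the 4 comparisons was 0.657 for each, and the smallest p the design allows is 0.0286.

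In the sum over all cDC-like cells a member's level combines its level per cell with the shares of mature cells and of the other subsets. These cannot be told apart there. The mix of subsets differed between the tumors. Irradiated MC38 had 12 mature DC-like, 5 DC1-like and 3 DC2-like of 55 cells, and irradiated Panc02-SIY 56, 47 and 87 of 255. Untreated MC38 had 12, 7 and 3 of 58, and untreated Panc02-SIY 38, 61 and 35 of 213. The part of this mix in the differences between tumors given below was not tested. All 10 members passed the filter on low counts, among 9026 genes. After radiation 0 of 10 were called in MC38 (0.122% of genes called) and 0 of 10 in Panc02-SIY (0.188%) by edgeR. At an unadjusted edgeR p under 0.05 there were 1 and 2 members, beside 494 and 767 of the 9026 genes. DESeq2 called 1 and 0 members. Over all genes it called 16 higher and 4 lower in MC38, and 35 higher and 4 lower in Panc02-SIY.

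In MC38 the 1 member was Il12b, which was at 446, 188, 549 and 10.2 CPM in the untreated and 0, 0, 21.9 and 36.9 CPM in the irradiated libraries. The value of 549 CPM, of untreated replicate 3, includes the DC1-like barcode with 209 Il12b UMIs described above. The fit was not repeated without that barcode. The lowest untreated library lay within the irradiated range and the other 3 lay above it. The difference was log2 -3.66 (SE 0.98, unadjusted p = 0.00275 and adjusted p = 0.527 by edgeR). Without untreated replicate 4, the low library, it was called (log2 -4.05, edgeR adjusted p = 0.0226), as it was by DESeq2 (log2 -3.96, adjusted p = 0.015). The other 9 members had differences from log2 -0.41 for Birc3 to 0.40 for Fscn1, with overlapping groups.

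In Panc02-SIY, Ccl22 was at 204, 42.7, 208 and 66.9 CPM untreated and 615, 900, 358 and 352 CPM irradiated. The groups did not overlap, as for 3.1% of genes in the higher direction, and the difference was log2 2.11 (SE 0.92, edgeR adjusted p = 0.552). Irradiated replicate 2 includes the mature DC-like barcode with 352 Ccl22 UMIs. Cd40 was at 77.9, 35.8, 116 and 64 CPM untreated and 107, 141, 109 and 137 CPM irradiated, with 1 untreated library inside the irradiated range (log2 0.75, SE 0.31, edgeR adjusted p = 0.468). Untreated replicate 2, where 6.25% of cDC-like cells were mature, was the lowest of its group for 9 of the 10 members, the exception being Birc3. The effect of radiation differed between the tumors for 0 of 10 members by edgeR and by DESeq2 (0% of genes called), with 1 member, Il12b, at an unadjusted edgeR p under 0.05 (log2 -3.93, SE 1.22, adjusted p = 0.981). Of all 9026 genes, 415 were at that unadjusted level.

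**Figure D4:**
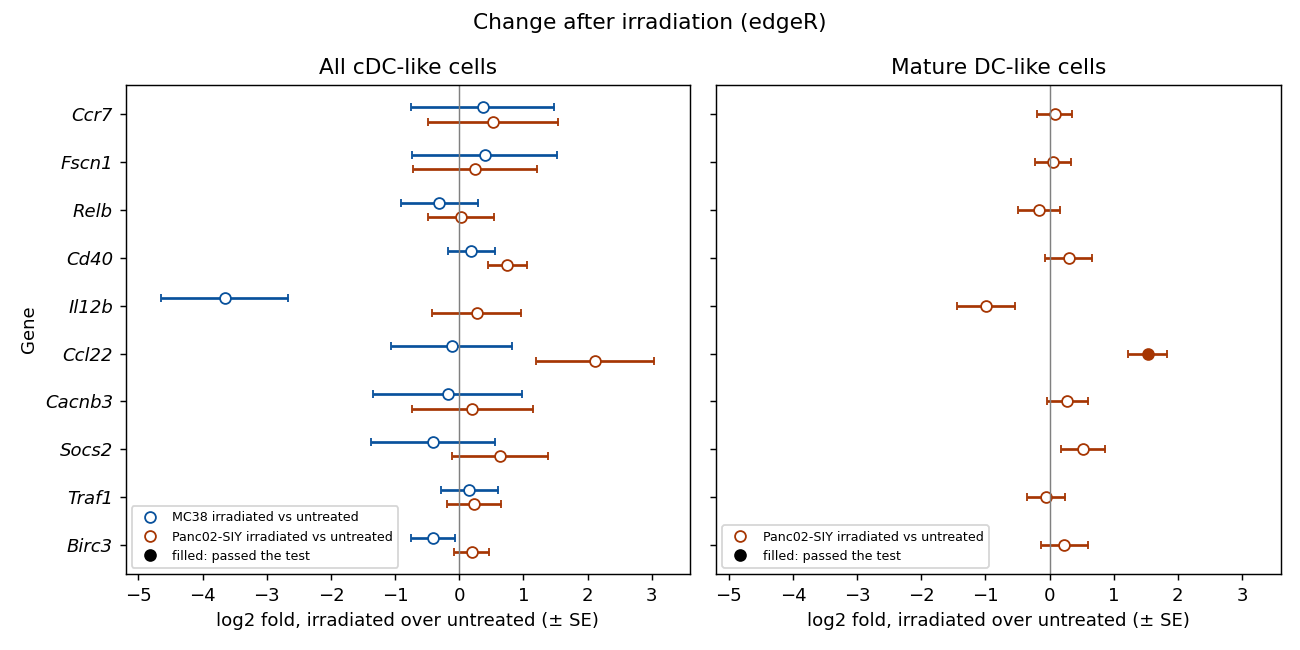
Difference after radiation (log2, irradiated over untreated) for each member in cDC-like cells of MC38 and Panc02-SIY and in mature DC-like cells of Panc02-SIY, with the SE as bars and called differences filled. Ccl22 in mature DC-like cells, at 1.53, is the 1 called difference, and Il12b in MC38 cDC-like cells lies lowest, at -3.66.

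Between tumors, 0 of 10 members were called in untreated cDC-like cells (10.4% of genes called), with 0 at an unadjusted edgeR p under 0.05 and 0 by DESeq2. Of all 9026 genes, 1896 were at that unadjusted level, and DESeq2 called 488 higher and 416 lower. After radiation 2 of 10 members were called, against 12.3% of genes. Il12b was lower in irradiated MC38, at 14.7 CPM ± 18 against 285 CPM ± 125 in irradiated Panc02-SIY (175.7, 447.6, 319.1 and 198.4 CPM), without overlap (log2 -3.53, SE 0.97, edgeR adjusted p = 0.0469). Irradiated Panc02-SIY replicate 3 includes the DC1-like barcode with 300 Il12b UMIs, and replicate 2 the mature DC-like barcode with 126. The fit was not repeated without these barcodes. Birc3 was at 127, 28.9, 60.1 and 71.6 CPM in irradiated MC38 and 164, 143, 125 and 102 CPM in irradiated Panc02-SIY, with overlap (log2 -0.87, SE 0.32, edgeR adjusted p = 0.0964), and 16 of 28 other processings lost the call. Il12b lost it in 4 of 28: without irradiated MC38 replicate 2 (edgeR adjusted p = 0.105) or 3 (0.143), for Zbtb46-positive cells (0.236) and with finer clusters (0.334). Irradiated MC38 replicates 1 and 2, both without an Il12b UMI, held only 4 and 5 cDC-like cells. Lower groups without overlap were seen for 13.9% of genes. Socs2 did not overlap between these groups either, at 27.3 to 95 CPM against 146 to 336 CPM, and was not called (log2 -1.74, edgeR adjusted p = 0.266). Macrophage markers (8 genes) in the cDC-like cells summed to 643 to 1153 CPM in irradiated MC38 and 107 to 272 CPM in irradiated Panc02-SIY, and their part in these results was not tested.

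**Figure D5:**
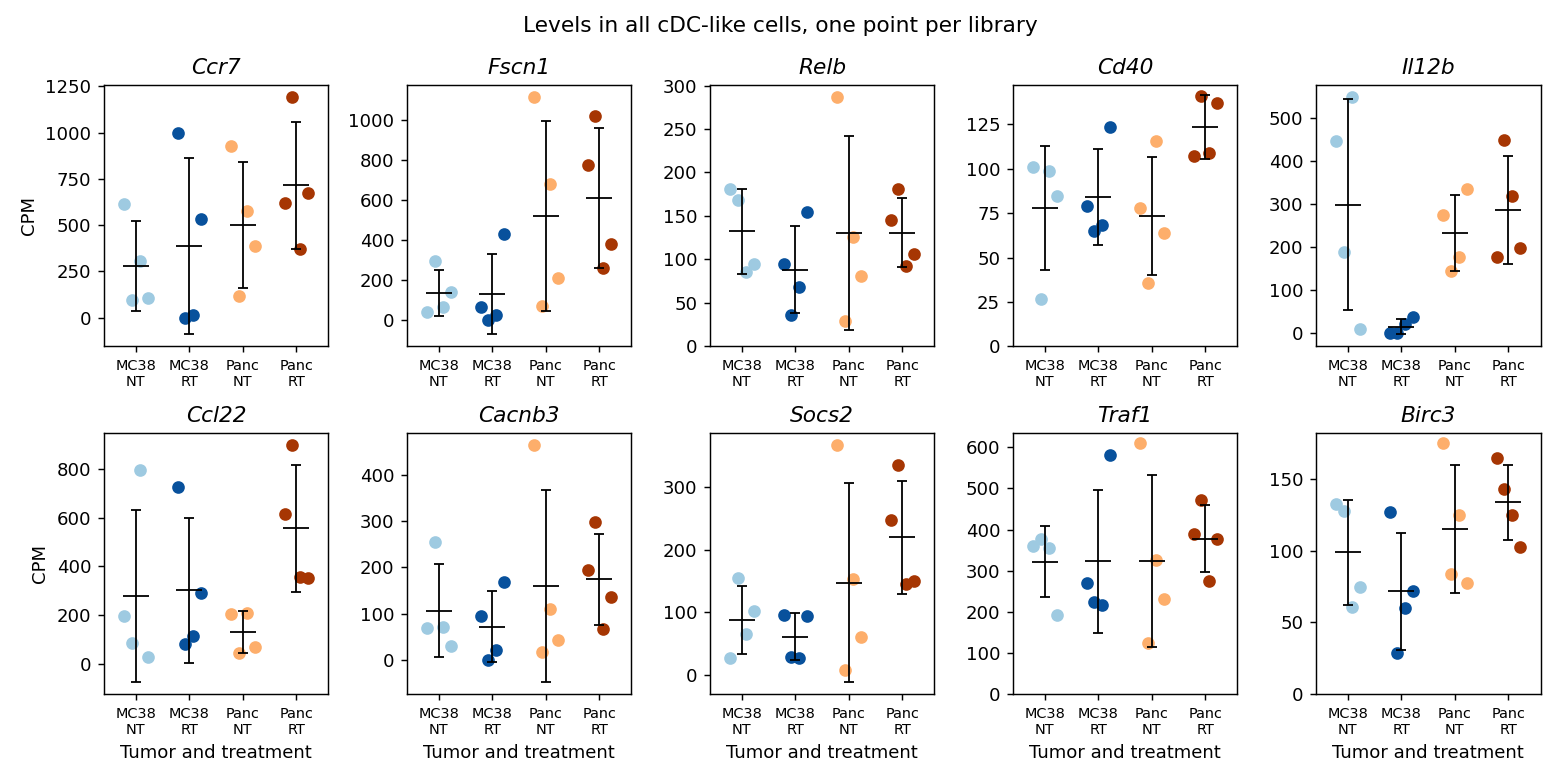
Level of each member (CPM) in all cDC-like cells of every library by group, with the mean and SD in black. For Il12b the 4 irradiated MC38 libraries lie at 36.9 CPM or below and the 4 irradiated Panc02-SIY libraries at 175.7 CPM or above.

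In irradiated cDC-like cells 3 of 25 NF-kB and CD40 signalling genes were lower in MC38 and 0 higher: Nfkb1, the p105 precursor and p50 subunit (log2 -1.64), Traf3, a brake on the noncanonical pathway (-1.40) and Cyld, a deubiquitinase that restrains NF-kB (-0.73). Of all genes 7.07% were called lower and 5.27% higher. The list's median was -0.46, against -0.12 for all genes. Of 12 costimulatory genes 2 were lower, Cd274 (-1.56) and Cd70, a ligand of CD27 (-3.64), and of the 2 partner genes tested Il12rb2 was lower (-4.49) and Ccl17 higher (4.24). In untreated cDC-like cells Ccl17 (5.94), Cd86 (0.84) and Nfkbie (0.96) were higher and Cd70 (-3.50) lower in MC38. Beside Ccl22, which binds the same receptor, Ccl17 was at 492 CPM ± 464 in untreated MC38 and 8.52 CPM ± 10.3 in untreated Panc02-SIY, and Ccl22 at 277 CPM ± 354 and 130 CPM ± 87.9 (edgeR adjusted p = 0.0206 and 0.483). The untreated MC38 value of Ccl22 includes the DC1-like barcode of replicate 3 with 339 Ccl22 UMIs. After radiation of either tumor 0 genes of the 3 lists were called in cDC-like cells.

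In the classes other than mature DC-like cells and all cDC-like cells, DC1-like and DC2-like cells included, the members that passed the filter gave 50 pairs of a member and a class in Panc02-SIY. After radiation 1 of these was called by edgeR, against 1.36% of all genes in these classes. It was Socs2 in T cells, at 40.6, 29.4, 27.3 and 35.3 CPM untreated and 70.8, 59, 67.1 and 64.4 CPM irradiated, without overlap. The rise was log2 0.87 (SE 0.16, edgeR adjusted p = 0.00216), where 4.52% of T cell genes were called and 10.4% did not overlap in this direction, and all 26 other processings kept the call. T cells lay in 5 clusters, and the mix moved with the groups. Cluster 11, led by Csf2, Lgals7 and Tnfsf8 and with the highest Socs2 of the 5 (140.5 CPM), held 207 of 3742 untreated and 305 of 2935 irradiated Panc02-SIY T cells, and cluster 8, with the lowest (31.5 CPM), held 670 and 215. Without cluster 11, an alternative added after seeing the data, the rise was log2 0.75 (edgeR adjusted p = 0.0226). The part of cluster 8 was not tested. In MC38 T cells, Socs2 was at 41, 6.24 and 33.8 CPM untreated and 125, 80.1, 78.7 and 46.7 CPM irradiated, without overlap and without a call (log2 1.34, SE 0.43, edgeR adjusted p = 0.241). The difference between the tumors in this effect was log2 0.47 (SE 0.47, edgeR adjusted p = 0.938).

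In MC38, 2 of 18 pairs were called after radiation, against 4.56% of genes. Traf1 rose in T cells, from 229, 218 and 176 CPM to 405, 534, 452 and 335 CPM, without overlap (log2 0.95, SE 0.23, edgeR adjusted p = 0.0757), and these libraries held 10 to 38 T cells each. Groups without overlap in the higher direction were seen for 2.33% of T cell genes and calls for 0.391%. The other untreated library, with 9 T cells and left out of the fit, was at 294 CPM. Cluster 11, with the highest Traf1 of the 5 T cell clusters (391 CPM, against 127 to 175 CPM), held 11 of 60 untreated and 28 of 82 irradiated MC38 T cells. Without it the call was lost (log2 0.89, edgeR adjusted p = 0.246), with 2 irradiated libraries left at 10 or more T cells. Birc3 rose in macrophages from 54.6 CPM ± 5.33 to 69.9 CPM ± 13.5 (log2 0.43, SE 0.13, edgeR adjusted p = 0.0329, with 11.9% of macrophage genes called). The Traf1 call was lost in 16 of 26 and the Birc3 call in 13 of 26 other processings. For 0 of 18 pairs was the difference between the tumors in the effect of radiation called by edgeR or DESeq2, with 1 at an unadjusted edgeR p under 0.05 and 0.0395% of genes called. That 1 pair was in T cells, where 653 of 11247 genes were at the same unadjusted level.

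Between the tumors, 6 of 18 pairs were called in untreated and 7 of 23 in irradiated cells, against 22.7% and 19.5% of genes. In macrophages Fscn1 was at 9.04, 8.75, 9.93 and 10.3 CPM in untreated MC38 and 0, 0, 4.92 and 0.0961 CPM in untreated Panc02-SIY, and at 8.43, 10.7, 8.35 and 9.01 CPM and 0, 2.48, 0.72 and 2.62 CPM in the irradiated tumors. All 8 MC38 libraries were above all 8 of Panc02-SIY, at a level far under that of mature DC-like cells (log2 4.09, SE 0.61, and 2.31, SE 0.50, edgeR adjusted p = 9.32e-06 and 0.000593). In Panc02-SIY, untreated replicate 1 had 15 macrophages with a median of 1890 UMIs, and irradiated replicate 1 had 48 with a median of 1281. At such depth 0 CPM does not show a lower level than in MC38. The other library at 0 CPM, untreated replicate 2, had 111 macrophages with a median of 17190 UMIs. The untreated difference moved to log2 6.55 without Panc02-SIY replicate 3 and to 2.57 without replicate 4, and the irradiated one to 2.97 without Panc02-SIY replicate 4. Both calls were kept in all 26 other processings. Cd40 was higher in MC38 macrophages too (log2 1.45 untreated and 1.69 irradiated), as was Relb (0.84 and 0.91), and Ccr7 was lower in untreated ones (-1.40, a call lost in 9 of 26 other processings). Of macrophage genes 48.7% and 48.5% were called and 15.3% and 12% did not overlap in the higher direction, and the macrophages of MC38 lay mostly in other clusters (6, 10 and 23) than those of Panc02-SIY (7 and 22).

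In NK cells Traf1 was higher in MC38, at 418 CPM ± 151 against 186 CPM ± 41.4 untreated (log2 1.13, edgeR adjusted p = 0.000152) and 328 CPM ± 54.5 against 182 CPM ± 35.2 irradiated (log2 0.86, edgeR adjusted p = 0.00498), with most MC38 cells in cluster 20 and most Panc02-SIY cells in cluster 2. Traf1 was at 519 CPM in cluster 20 and 177 CPM in cluster 2. Barcodes of cluster 20 were shallow, with a median of 0.221 of their library's median UMIs, against 0.902 in cluster 2. The part of these clusters was not tested. The untreated call was kept in all 25 other processings that gave a value, 1 fewer than for the irradiated call. The 2 calls were thus not put to the same processings. The irradiated call was lost in 1 of 26, the cell filter (log2 0.375, edgeR adjusted p = 0.332). In T cells Relb was called higher in MC38 in both states (log2 0.97 and 1.02), and in irradiated MC38 Traf1 (0.89) and Ccr7 (2.34) were called higher. The untreated Relb call was lost with its direction kept in 6 of 26 other processings, among them the fit with the replicate number as a block (edgeR adjusted p = 0.114). It was lost in 1 more, when libraries were thinned to the same mean number of UMIs per cell, where the value turned to -0.45 (edgeR adjusted p = 0.775). The irradiated Relb and Traf1 calls were each lost in 2 of 26, and the Ccr7 call was kept in all 26. The clusters of T cells differed between the tumors: cluster 11, the highest of the 5 for Ccr7 (85.1 CPM), Traf1 and Relb (45.4 CPM), held 11 of 60 and 28 of 82 MC38 T cells and 207 of 3742 and 305 of 2935 Panc02-SIY T cells, untreated and irradiated. Without it the irradiated differences were log2 1.26 for Relb, 0.83 for Traf1 and 2.80 for Ccr7 and the untreated Relb difference 0.94, all called. The part of the other clusters was not tested.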

How the data were processed

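Live CD45+ tumor cells were profiled in 16 droplet 3′ libraries. According to the submitters' processing notes, reads were demultiplexed with bcl2fastq 2.20.0 and counted with Cell Ranger 3.1.0 on mm10. The deposited matrices hold raw UMI counts per gene and barcode, not normalized by the authors, as filtered barcodes of each library; the deposited files name no doublet removal. All mapped columns were used.

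Barcodes found in several libraries, of the same or of both tumors, were assigned to the deepest copy. Cells were clustered with scanpy 1.11.5 (2000 variable genes without the members, 30 principal components, resolution 1) and named from marker lists; splitting off 25 plasmacytoid-like barcodes was decided after seeing the data. UMI counts were summed per library and class, over at least 3 cells for DC subsets and 10 for other classes. Tests were edgeR 4.0.16 quasi-likelihood tests (R 4.3.3) over all genes and 4 groups, with TMM scaling, a count minimum of 3 (total 15), Benjamini-Hochberg adjustment and calls at adjusted p below 0.1 and fold above 1.3. CPM is plain UMIs per 1000000. Kept UMIs per library ranged from 1385711 to 43685374. Doublets were not removed in the main analysis: the automatic caller marked 0.438% of barcodes, so removal of the top 5% by score was an alternative. The code was tested on simulated data. Alternatives covered DESeq2 1.42.0, scaling, filters, clustering, depth and left-out libraries. Genes were named by a fixed rule: all members, pathway genes called or among the 3 highest of their list in mature DC-like cells, and the 5 genes nearest in class pattern. Map3k14, Nfkb2 and the partner genes with 0 UMIs were named outside this rule. The members and lists were chosen with earlier results of these data known.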

Additional observations from a re-analysis of the deposited data

Results flagged for a closer look

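A total of 4 values stood apart from the other 3 libraries of their group by Dixon's test (95% critical value 0.829), among 64 groups of 4 libraries examined. Chance marks about 1 in 20 groups. Fscn1 in cDC-like cells of irradiated MC38 replicate 4 was 427.4 CPM, over 27 cells, with the others between 0 and 63.31 CPM. Traf1 in the same library was 581.4 CPM, with the others between 215.8 and 269.1 CPM. This is also the library with the largest share of mature cells in its group, 33.3%. Traf1 in cDC-like cells of untreated MC38 replicate 4 was 192.8 CPM, over 17 cells, below the others at 355.2 to 376 CPM. In that library 11.8% of cDC-like cells were mature, the lowest share of its group. Cd40 in mature DC-like cells of untreated Panc02-SIY replicate 4 was 337.4 CPM, over 12 cells, above the others at 156 to 176.5 CPM.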

How the results depend on the processing

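The limits are those of cell number: irradiated MC38 libraries held 4 to 27 cDC-like cells each, and 5 of 16 libraries fell short of 3 mature DC-like cells, so in these cells radiation in MC38, the tumors after radiation and the difference between tumors were fitted only with no minimum or with all barcodes. The cause of the changes below was not tested. Counts of called members were recomputed under 23 to 30 alternatives for each comparison. In cDC-like cells, radiation in MC38 went from 0 to 1 under DESeq2 and without a count filter, and between 0 and 1 when 1 library was left out (1 without MC38_NT replicate 4). Without a count filter the other cDC-like comparisons went to 1 (Panc02-SIY radiation), 3 (untreated tumors), 7 (irradiated tumors) and 2 (difference between tumors). Calls over all genes rose too, with 15399 genes tested. For Panc02-SIY radiation 211 were called higher and 138 lower, against 14 and 3 with the filter. Between irradiated tumors these were 573 and 729, against 476 and 638, and between untreated ones 512 and 588, against 447 and 490. For the difference between tumors they were 13 and 14, against 0 and 0. The 2 calls between irradiated tumors became 1 under DESeq2, doublet removal, RLE scaling, thinned libraries and an adjusted p below 0.05, 0 at clustering resolution 2 and for Zbtb46-positive cells, and 0 to 2 when 1 library was left out (0 without MC38_RT replicate 2 or 3). In mature DC-like cells the call in Panc02-SIY became 0 at resolution 2 and 0 with no minimum number of cells (added after seeing the data), with 0 to 2 when 1 library was left out. The call between untreated tumors became 0 with no minimum, with 1 to 2 when 1 library was left out (2 without MC38_NT replicate 3). In other classes, the 2 calls for radiation in MC38 became 0 with all barcodes and with the cell filter, 4 under DESeq2, 1 with doublets removed, only the groups compared, resolution 2, thinned libraries, an adjusted p below 0.05 or a log2 change above 0.58, and 0 to 2 when 1 library was left out (0 without Panc02SIY_NT or Panc02SIY_RT replicate 2, MC38_NT replicate 1 or 2, or MC38_RT replicate 1 or 2). The 1 call for radiation in Panc02-SIY became 3 with all barcodes, 2 with the cell filter or RLE scaling and 4 without a count filter, with 1 to 3 when 1 library was left out (3 without Panc02SIY_NT replicate 2). The 6 calls between untreated tumors became 10 with all barcodes, and the difference between tumors 0 to 1 when 1 library was left out (1 without Panc02SIY_NT replicate 3).

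The difference in the mature share turned at resolution 2 to 9.29 percentage points for radiation in MC38 and 0.48 between irradiated tumors. At that resolution 332 cells were cDC-like, and the mature name covered a sub-cluster of 64. Sub-clusters of 35 and 27 cells raised 12 of 12 and 8 of 12 mature DC markers, but the naming rule gave them no name. Mature DC-like cells at resolution 2 are thus another set of cells than in the main analysis. When 1 library was left out it ranged from -9.85 to 1.26 for radiation in MC38 (1.26 without MC38_RT replicate 2) and from -0.722 to 8.79 between untreated tumors (-0.722 without Panc02SIY_NT replicate 2). Log2 differences after radiation in mature DC-like cells of Panc02-SIY that turned were Cacnb3 -0.0174, Cd40 -0.286, Traf1 0.101, Fscn1 -0.246 and Ccr7 -0.0665 at resolution 2, and Traf1 0.0519 without a count filter and 0.101 in thinned libraries. With 1 library left out they ranged from -0.21 to 0.0485 for Traf1, -0.132 to 0.386 for Fscn1 and -0.0625 to 0.236 for Ccr7. Relb in untreated T cells turned to -0.446 in thinned libraries.

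The correlations of the deviations of same-numbered untreated and irradiated libraries ran, in MC38, from -0.0483 to 0.0188 in cDC-like, -0.0326 to 0.0196 in NK, -0.0648 to 0.176 in T cells and 0.0092 to 0.0826 in macrophages, with 0, 0, 3 and 0 of 4 pairs best with their own number. In Panc02-SIY they ran from -0.215 to 0.402, -0.00119 to 0.404, -0.0231 to 0.651 and 0.0491 to 0.457, with 1, 3, 2 and 2 of 4. Some Panc02-SIY pairs thus deviated together, but in no class were all 4 over 0.1, so the fit without the block was reported. With the replicate number as a block, the count for radiation in Panc02-SIY in other classes became 5, and the counts in cDC-like and mature DC-like cells did not move.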
